A study of Mus musculus with 4 samples.

Results

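Tbx2, Tbx3, Tbx15 and Tbx18 encode T-box transcription factors, and their chromatin was examined in early mouse limb buds as lists of accessible regions. A region was counted for a gene when the nearest transcription start of any protein-coding gene belonged to it, or when the region's centre lay within 2.5 kb of one of its starts. This rule gave 73 of 89378 regions, 33 of 42613 in the E9.5 list and 40 of 46765 in the E10.5 list. Nearness does not show which gene a region acts on.

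T-box proteins bind DNA through the conserved T-box domain. Tbx2 and Tbx3 are close relatives that mostly act as repressors and are expressed along the anterior and posterior margins of the limb bud, in the flank and in the developing heart. Tbx15 and Tbx18 form another closely related pair, expressed in proximal limb bud mesenchyme, and Tbx18 also in the anterior compartment of each somite. Regulatory elements of such developmental genes often lie far from the start, and open chromatin, which the transposase of ATAC-seq can enter, is one of their marks.

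ATAC-seq was done on wild-type NMRI embryos, with 2 samples at E9.5 (a slightly later stage in the protocol) and 2 at E10.5, each a pair of forelimb buds of 1 embryo. At E9.5 the buds were taken with the attached trunk, and the tissue label at E10.5 names hindlimb buds as well. The authors combined the 2 samples of a stage into 1 list, so there was no spread between embryos to set against a difference, no test was made, and stage, trunk tissue and sequencing depth cannot be told apart. A region near a start was found in both lists for 6 of 6 limb mesenchyme marker genes. Somite genes (4 of 4) and neural tube genes (3 of 3) also had one in both lists. These counts do not single out limb tissue, and no share over all protein-coding genes stands beside them. Of the 2 hindlimb genes both had one at E9.5 and 1 at E10.5. Apical ridge genes had 3 and 2 of 3, the trunk mesoderm and heart genes 3 of 4 in both, and the blood and vessel genes 1 of 2 in both, and the part of these tissues in the results was not tested.

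Regions that overlapped one at the other stage, by 1 bp or more, were counted as shared and the rest as stage-specific. Over the whole lists the stage-specific share was 29.9% at E9.5 and 35.0% in the later list. Among distal regions, those with a centre more than 2.5 kb from any start, the shares were 40.3% and 49.6%. The height of a region is its score, 10 times the negative log10 of the best peak p-value of the 2 samples. Since it grows with depth, it was compared between lists only as a percentile, with 100 for the strongest region of a list.

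The sequences below are the central 300 bases (+ strand, mm9) of 6 regions of the 4 genes, picked by score, motif or change of percentile. The first 4 are the strongest stage-specific region of Tbx2, Tbx3, Tbx15 and Tbx18. The others are another E10.5-specific region of Tbx18 that holds the full T-box motif, and the shared Tbx18 region whose percentile moved most. Capitals mark exact matches, on either strand, to any of 13 short motifs, among them the T-box AGGTGTGA, the E-boxes CAGCTG and CATATG, the TALE motif TGACAG, the GC-rich SMAD motif GGCGCC, the GLI motif TGGGTGG, the PBX-HOX motif TGATTNAT and the AP-1 motif TGANTCA. Bases in lower case match none of them.
Tbx2 intron, E9.5-specific, chr11:85651113-85651412: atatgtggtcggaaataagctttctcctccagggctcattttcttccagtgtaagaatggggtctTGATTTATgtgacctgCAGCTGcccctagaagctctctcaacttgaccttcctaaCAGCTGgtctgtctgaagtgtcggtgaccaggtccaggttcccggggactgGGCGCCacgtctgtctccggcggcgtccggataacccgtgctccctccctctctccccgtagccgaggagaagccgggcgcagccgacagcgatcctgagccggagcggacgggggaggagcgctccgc
Tbx3 far upstream, E9.5-specific, chr5:119828336-119828635: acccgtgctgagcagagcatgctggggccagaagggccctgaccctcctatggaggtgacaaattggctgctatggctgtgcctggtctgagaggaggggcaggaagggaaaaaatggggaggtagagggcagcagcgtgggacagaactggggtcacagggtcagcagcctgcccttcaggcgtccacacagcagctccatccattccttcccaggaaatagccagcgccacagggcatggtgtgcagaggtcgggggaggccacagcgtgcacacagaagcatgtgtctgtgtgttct
Tbx15 intron, E10.5-specific, chr3:99115809-99116108: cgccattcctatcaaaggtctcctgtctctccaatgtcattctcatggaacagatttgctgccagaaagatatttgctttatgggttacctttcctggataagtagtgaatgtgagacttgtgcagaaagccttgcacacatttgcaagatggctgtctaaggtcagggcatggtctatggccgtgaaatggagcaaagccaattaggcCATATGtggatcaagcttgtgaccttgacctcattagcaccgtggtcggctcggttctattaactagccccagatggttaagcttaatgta
Tbx18 far upstream, E10.5-specific, chr9:87918610-87918909: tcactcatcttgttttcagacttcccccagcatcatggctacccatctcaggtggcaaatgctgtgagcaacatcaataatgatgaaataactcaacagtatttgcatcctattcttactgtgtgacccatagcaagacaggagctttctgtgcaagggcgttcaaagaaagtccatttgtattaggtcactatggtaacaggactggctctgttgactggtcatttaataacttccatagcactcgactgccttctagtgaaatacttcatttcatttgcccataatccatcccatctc
Tbx18 upstream, E10.5-specific, chr9:87719640-87719939: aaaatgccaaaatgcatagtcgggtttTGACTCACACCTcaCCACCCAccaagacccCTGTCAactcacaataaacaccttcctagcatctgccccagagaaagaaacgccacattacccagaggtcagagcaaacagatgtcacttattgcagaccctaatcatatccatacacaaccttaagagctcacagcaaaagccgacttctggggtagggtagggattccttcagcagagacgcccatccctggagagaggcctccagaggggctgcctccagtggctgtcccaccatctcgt
Tbx18 upstream, shared, chr9:87879876-87880175: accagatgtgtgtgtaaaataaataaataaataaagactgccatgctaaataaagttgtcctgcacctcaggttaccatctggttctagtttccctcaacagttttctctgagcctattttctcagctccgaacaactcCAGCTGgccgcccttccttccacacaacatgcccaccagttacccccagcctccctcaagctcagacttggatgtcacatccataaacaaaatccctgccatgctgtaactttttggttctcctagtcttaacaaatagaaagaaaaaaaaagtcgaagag

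In the Tbx18 upstream window, a match to AP-1 runs into the reverse of the T-box, and a reverse GLI match and a reverse TALE match follow. The windows of Tbx3 and of the farther Tbx18 region hold none of the 13 motifs. The Tbx2 window starts in an intron of the gene and runs into its next coding exon, and the Tbx15 window is intronic. The Tbx3 window and the 3 Tbx18 windows lie outside annotated genes.

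Tbx2 and Tbx3 had most of their stage-specific regions at E9.5, and Tbx15 and Tbx18 at E10.5, though for Tbx2 this rests on 1 region. Of the 17 regions of Tbx2 and Tbx3 at E9.5, 10 (58.8%, 95% Wilson interval 36.0 to 78.4) were absent from the E10.5 list, and at E10.5 the stage-specific number was 3 of 10 (30.0%, 10.8 to 60.3). Of the 16 regions of Tbx15 and Tbx18 at E9.5 only 2 were stage-specific (12.5%, 3.50 to 36.0), against 17 of 30 at E10.5 (56.7%, 39.2 to 72.6). These intervals cover counting error only, treating regions as independent. All 4 genes together gave 12 of 33 (36.4%) and 20 of 40 (50%). The intervals of the pairs overlapped at E10.5 and met at E9.5.

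Distal regions were more often stage-specific than promoter regions in both lists (promoter shares 13.1% and 5.31%), stage-specific regions were weaker (median percentile 26.9 against 63.2 for shared ones at E9.5, and 30.6 against 62.9 in the later list), and distal E10.5-specific regions had a lower GC content than distal shared ones (median 44.0% against 50.7%). The numbers were therefore set beside those that regions of the same list, promoter class, score decile and GC quintile would give. For Tbx3 at E9.5 the 9 stage-specific regions stood beside 5.76, and for Tbx15 and Tbx18 at E9.5 the numbers 0 and 2 stood beside 2.06 and 3.35. At E10.5 the numbers were closer to those of like regions, with 3 beside 2.73 for Tbx3, 7 beside 5.16 for Tbx15 and 10 beside 8.19 for Tbx18. In each of the 8 shares of single genes and the 4 of the pairs, the share of like regions lay inside the Wilson interval of the observed one, so at these counts no gene could be set apart from like regions.

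**Figure D1:**
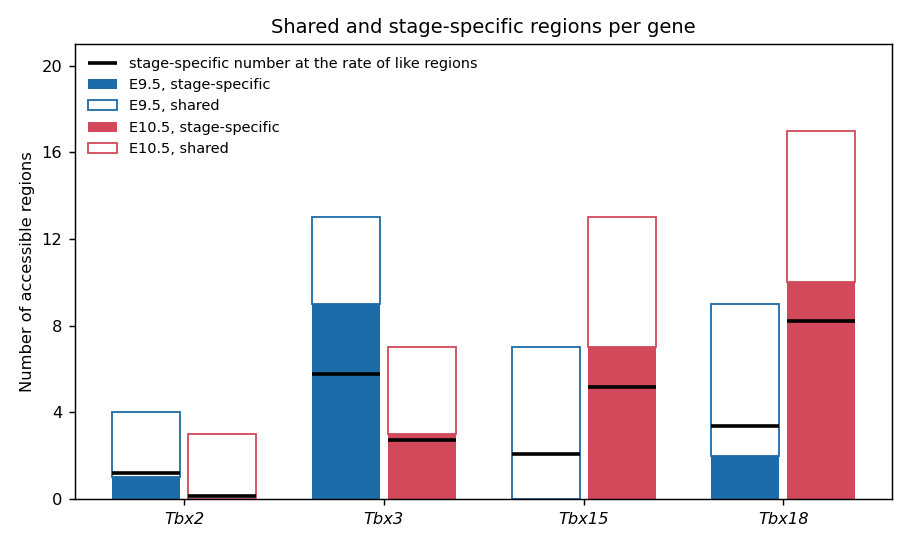
Number of accessible regions (y axis) of each gene (x axis) in the E9.5 list (blue) and the E10.5 list (red); filled parts are stage-specific, open parts shared, and black lines give the stage-specific number at the rate of like regions. Tbx3 had 9 filled at E9.5 and 3 at E10.5, whereas Tbx15 had 0 and 7 and Tbx18 had 2 and 10.

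The bases covered moved with the counts. They went from 6.69 kb at E9.5 to 3.01 kb at E10.5 for Tbx2 and from 13.6 to 7.24 kb for Tbx3, but from 10.2 to 18.7 kb for Tbx15 and from 13.4 to 23.3 kb for Tbx18. Of the regions in the upper 50% of scores, Tbx2 and Tbx3 had 3 of 6 stage-specific in the earlier list and 0 of 2 in the later one, and Tbx15 and Tbx18 had 0 of 8 and 9 of 18. Among all regions of the upper 50%, promoter regions included as in these counts, the stage-specific share was 10.8% in the earlier list and 18.1% in the later one, and among the distal ones alone it was 22.9% and 35.4%.

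**Figure D2:**
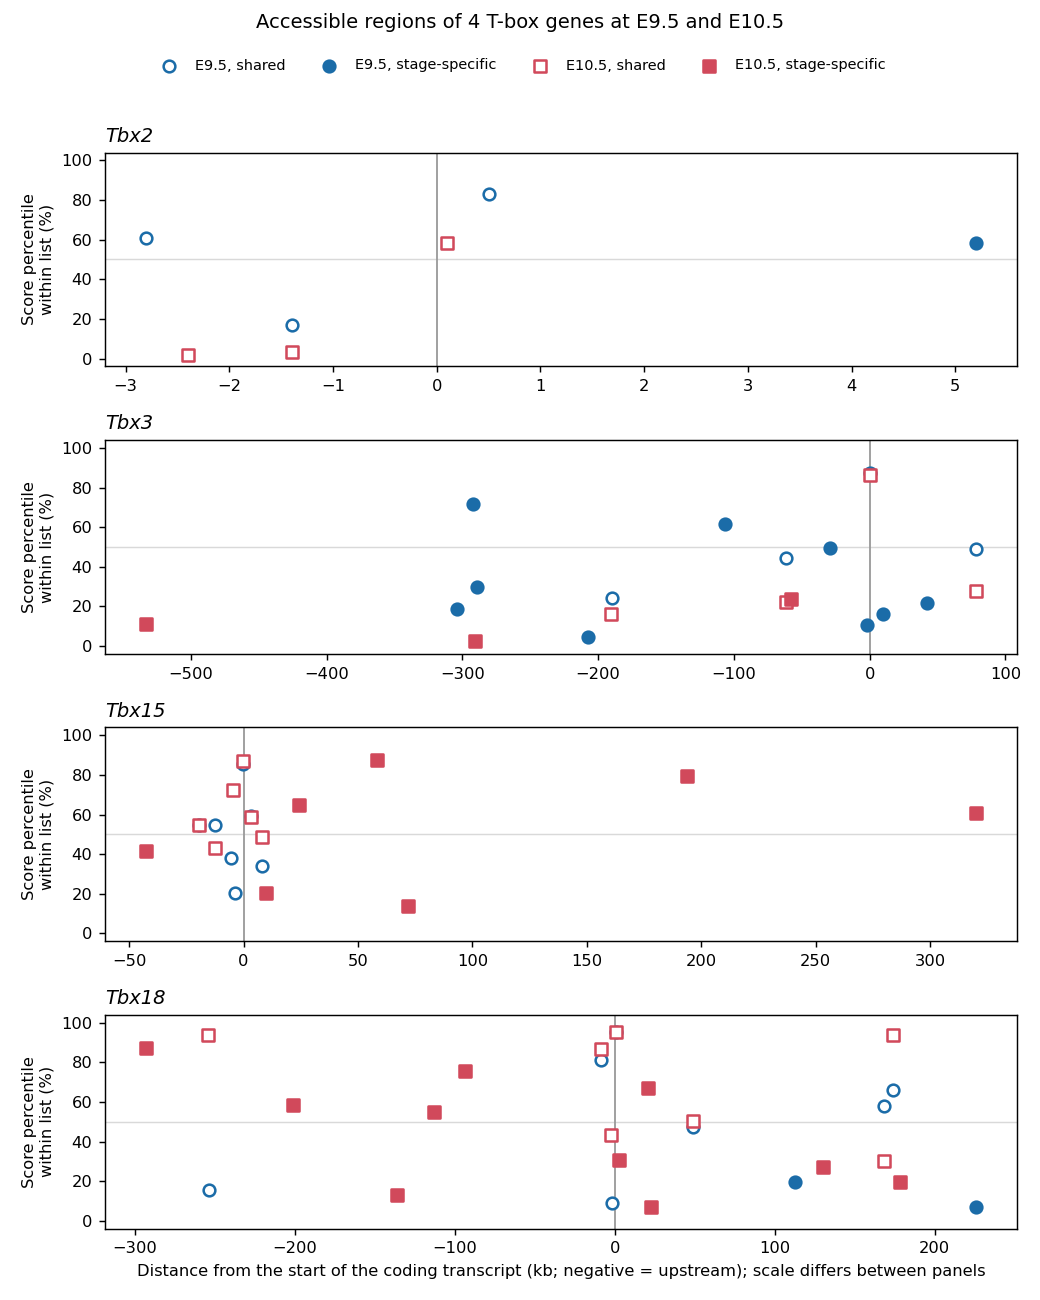
Score percentile within the list (y axis, %) of every region against its distance from the start of the coding transcript (x axis, kb, scale differing between panels), with circles for E9.5, squares for E10.5, filled symbols for stage-specific and open symbols for shared regions. Filled circles lie on both sides of the Tbx3 start, up to 304 kb from it. Filled squares lie up to 533 kb from the start of Tbx3, 320 kb for Tbx15 and 293 kb for Tbx18.

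Tbx2 (chr11:85646053-85655450, + strand) had the fewest regions, and they lost height. The nearest starts of other protein-coding genes lie close, that of Bcas3 10.6 kb before its own and that of Gm11444 17.8 kb after it. By these starts, which include those of noncoding transcripts, only 14.2 kb is nearer to Tbx2 than to any other protein-coding gene. With starts of protein-coding transcripts only, Tbx2 had 5 regions at E9.5, 2 of them stage-specific. There were 4 regions at E9.5 (1 stage-specific, beside 1.19) and 3 at E10.5 (0 stage-specific, beside 0.132). For this 0 the Wilson interval of the share ran from 0 to 56.1%, and the limit of 3 counts allows up to 100%.

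The Tbx2 start was covered by a region of score 1178.22 and 2406 bp at E9.5 and of score 309.35 and 1493 bp at E10.5, a step from the 83.2 to the 58.4 percentile. A region 2.79 kb upstream, in an intron of the lincRNA 2610027K06Rik, scored 386.48 (60.7 percentile) at E9.5 and 76.22 (1.71 percentile) at E10.5. It fell by 59.0 percentile points, and 86 (0.548%) of the distal shared regions of the whole list fell at least as far. At E10.5 its centre was within 2.5 kb of the start. The other shared region, 1.36 kb upstream, went from 120.1 to 83.74 (16.8 to 3.32 percentile). The stage-specific region, at chr11:85650422-85652104 in an intron 5.21 kb after the start, scored 350.05 (58.2 percentile), and its nearest E10.5 region was 3.07 kb away. Thus no region of Tbx2 ranked higher at E10.5.

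Tbx3 (chr5:120120678-120134733, + strand) had 13 regions at E9.5 and 7 at E10.5. It lies between Med13l, whose start is 1110 kb upstream, and Tbx5, the forelimb T-box gene, whose start is 154 kb beyond its last start, so 642 kb counts as its own. These counts depend on which starts are considered: with starts of all gene types, noncoding ones included, Tbx3 kept 3 regions at E9.5 (2 stage-specific) and 1 at E10.5 (0 stage-specific). Of its E9.5 regions 9 were stage-specific (69.2%, 42.4 to 87.3), 7 of them among the 10 distal regions. At E10.5 the number was 3 (42.9%), all distal. Not all of the 9 lay far from an E10.5 region, as the smallest gaps were 579, 607 and 862 bp. Counting only regions with none of the other list within 1 kb left 6 (46.2%) in the earlier list and 2 (28.6%) in the later one. Like regions were not counted in this way.

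The region at the Tbx3 start held its rank, with a score of 1440.12 at E9.5 and 1019.57 at E10.5 (87.1 and 86.4 percentile). It widened from 1688 to 2421 bp. The other promoter regions were E9.5-specific and weak: 107.32 at 1.66 kb before the start, and 118.57 in an exon 9.94 kb after it, next to an internal start.

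The 2 strongest E9.5-specific regions of Tbx3 lay outside genes. The first, chr5:119827926-119829046, was 292 kb upstream and scored 657.51 (71.7 percentile). An E10.5-specific region of score 79.9 (2.49 percentile) lay 862 bp from it, so a weaker region was still called close by. The second, chr5:120013249-120014585, was 107 kb upstream and scored 398.76 (61.4 percentile), and its nearest E10.5 region was 44.2 kb away. Those at 28.9 kb upstream (255.45, 49.4 percentile) and 289 kb upstream (153.91, 29.6 percentile) came next. The other 3 distal E9.5-specific regions scored 90.79 to 131.98.

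The 3 shared distal regions of Tbx3 all ranked lower at E10.5. The one 61.5 kb upstream went from 221.51 to 130.5 (44.6 to 22.4 percentile), the one 78.3 kb downstream from 253.31 to 143.72 (49.1 to 27.6), and the one 190 kb upstream from 137.61 to 116.11 (24.0 to 16.2). Changes as large as the first, a fall by 22.2 points, were seen in 13.2% of all distal shared regions. The E10.5-specific regions were weak, with scores of 133.7 (58.0 kb upstream), 106.17 (533 kb upstream, the farthest region of the 4 genes) and 79.9.

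Tbx15 (chr3:99044304-99158182, + strand) had no E9.5-specific region. All 7 regions at E9.5 were shared (0 of 7, which allows a share of up to 42.9%), and at E10.5 the stage-specific number was 7 of 13 (53.8%, 29.1 to 76.8). Its outermost annotated start belongs to a transcript that is not coding, and the coding transcript starts 13.4 kb further in, at position 99057683, from which distances are given. The start of Wars2 is 99.2 kb before the outermost Tbx15 start and that of Spag17 589 kb after the last Tbx15 start, leaving 400 kb of its own.

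Of the 3 annotated starts of Tbx15, the outermost and the coding one had a region within 2.5 kb in both lists, and the remaining one, inside the gene and of another noncoding transcript, had none in either. The region at the coding start scored 1334.98 and 1042.63 (85.6 and 86.8 percentile), and the one near the outermost start 306.96 and 202.99 (54.9 and 43.3 percentile). Between these 2 starts, E9.5 regions at 5.53 and 3.60 kb before the coding start, of 186.54 and 127.95 (38.1 and 20.2 percentile), both overlapped a single E10.5 region of 2418 bp that scored 524.13 (72.5 percentile). This was a rise by 34.5 and 52.3 points, and 11.7% and 3.98% of the distal shared regions rose as far. Shared regions 19.3 kb before and 3.27 kb after the start kept their percentile (54.9 and 54.7, 59.2 and 59.0), and the one 7.98 kb after it went from 34.1 to 48.7.

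The E10.5-specific regions of Tbx15 were more distant and included strong ones. The strongest, chr3:99115210-99116708, was in an intron 58.3 kb after the coding start and scored 1095.88 (87.7 percentile), above the region at the start itself, with no E9.5 region within 48.9 kb. The next, chr3:99250886-99252536, was 194 kb downstream, beyond the gene, and scored 718.22 (79.6 percentile), with the nearest E9.5 region 185 kb away. An intronic region 24.4 kb after the start scored 385.0 (64.6 percentile), and the farthest, 320 kb downstream, 334.19 (60.6 percentile). The nearest Tbx15 start to the farthest region was the noncoding one inside the gene, 277 kb away. With starts of protein-coding transcripts only, Tbx15 had 12 regions at E10.5, 6 of them stage-specific. The remaining 3 scored 111.35 to 194.84. All shared regions, in contrast, lay within 19.6 kb of the coding start, whereas the E10.5-specific ones were between 9.84 and 320 kb from it. The smallest gap of an E10.5-specific region to the E9.5 list was 840 bp. Of the 13 E10.5 regions, 6 (46.2%) had no E9.5 region within 1 kb.

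Tbx18 (chr9:87597635-87626095, - strand) had the most regions, 9 at E9.5 and 17 at E10.5. Its neighbours are 476 kb and 596 kb away (4922501C03Rik downstream and Nt5e upstream), leaving 536 kb. With starts of all gene types it kept 8 and 11 regions, of which 2 and 5 were stage-specific. The stage-specific number was 2 at E9.5 (22.2%, 6.32 to 54.7) and 10 at E10.5 (58.8%, 36.0 to 78.4), and none of these 12 was a promoter region. The smallest gap of an E10.5-specific region to the E9.5 list was 186 bp. Of the 17 E10.5 regions, 9 (52.9%) had no E9.5 region within 1 kb.

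The Tbx18 start held the strongest region of the 4 genes at both stages, with scores of 2421.46 and 1814.87 (95.5 and 95.1 percentile) and widths of 2854 and 2704 bp. A second promoter region 1.77 kb upstream went from 104.44 to 202.66 (8.92 to 43.2 percentile), and a distal region 8.83 kb upstream had 1063.91 and 1052.21 (81.1 and 87.0 percentile).

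The largest change of percentile among the 21 shared regions of the 4 genes was far upstream. A region 254 kb before the start scored 117.46 and was 887 bp wide at E9.5, but scored 1609.15 and was 2153 bp wide at E10.5 (15.4 to 93.6 percentile). It rose by 78.2 points, as 54 (0.344%) of the distal shared regions did. A region 174 kb downstream reached the same rank, going from 498.23 to 1602.58 (66.2 to 93.6 percentile). Only 1 shared distal region of Tbx18 ranked lower, 168 kb downstream, which went from 347.76 to 151.34 (58.1 to 30.2 percentile), while the one 48.9 kb downstream scored 241.04 and 245.46 (47.5 and 50.6 percentile).

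The strongest E10.5-specific region of Tbx18, chr9:87917947-87919573, was its farthest, 293 kb upstream, with a score of 1060.75 (87.2 percentile) and 24.3 kb from any E9.5 region. The next, chr9:87719278-87720302, 93.7 kb upstream, scored 597.66 (75.7 percentile) and carries the T-box match. An intronic region 20.9 kb after the start scored 421.5 (67.0 percentile). The other 7 scored 97.17 to 308.0. The 2 E9.5-specific regions, 113 and 226 kb downstream, were weak, with scores of 126.64 and 100.64 (19.7 and 6.83 percentile).

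**Figure D3:**
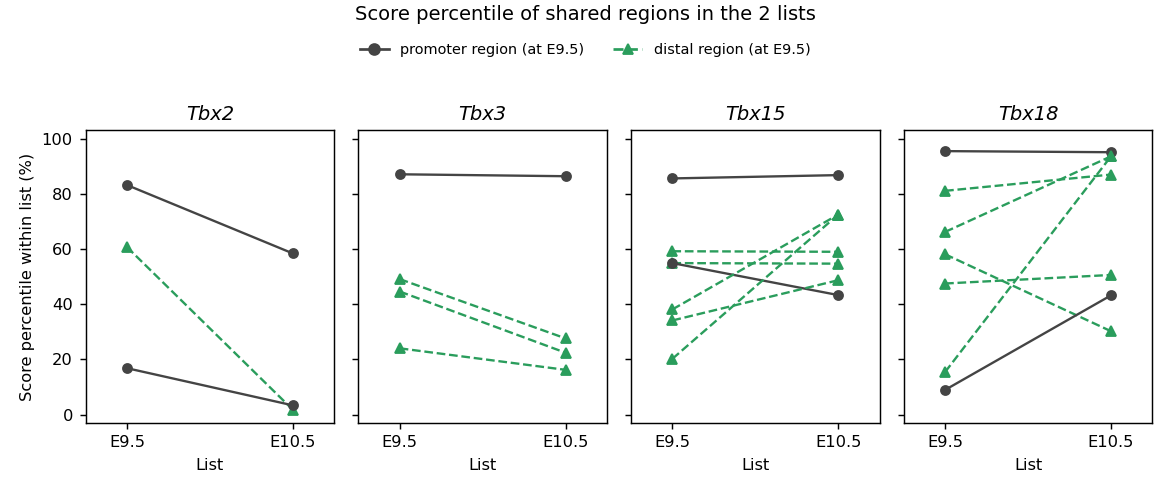
Score percentile within each list (y axis, %) of each E9.5 region that has a partner at E10.5, joined to that partner, with solid grey lines for promoter regions and dashed green lines for distal regions. All 7 lines of Tbx2 and Tbx3 fall, and 9 of the 14 lines of Tbx15 and Tbx18 rise, the steepest from 15.4 to 93.6; a pair of Tbx15 lines ends in 1 merged E10.5 region.

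Over the whole E9.5 list, 50.3% of shared regions and 58.2% of distal shared regions ranked higher at E10.5. The 9 of 14 of Tbx15 and Tbx18 (64.3%) were near that background, and the 0 of 7 of Tbx2 and Tbx3 were below it, on few regions.

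Among the 16435 protein-coding genes that had any region, the median gene had 2 regions in each list and 0 stage-specific ones. A number of regions found at E9.5 alone at or above that of Tbx3 was seen in 84 genes (0.511%), and of E10.5-specific regions at or above those of Tbx18 and Tbx15 in 243 (1.48%) and 552 (3.36%). Genes with as many regions in all, shared ones included, were also few. The E9.5 total of Tbx3 was reached in 256 genes (1.56%), and the E10.5 totals of Tbx18 and Tbx15 in 227 (1.38%) and 476 (2.90%). High stage-specific counts thus went with high totals. An excess of regions particular to E9.5 was seen in 25.5% of genes and an excess of those particular to E10.5 in 26.8%. The excess of Tbx3, 6 regions, was reached in 115 genes (0.700%), that of Tbx15, 7 regions, in 327 (1.99%) and that of Tbx18, 8 regions, in 246, whereas the excess of Tbx2, 1 region, is common. The space around each gene was not accounted for in these ranks, and they use starts of protein-coding genes only, on which the count of Tbx3 depends.

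Genes with the most like counts were found by summing the absolute differences in the number of regions and of stage-specific regions at both stages. For Tbx3 these were 8430427H17Rik at a sum of 1, and Cadm1 and Nphp4 at 2. For Tbx15 they were Adamts6, Car8 and Hgf at 1, and for Tbx18 Dkk2 at 1 and Csrnp3 and Dusp26 at 2. For Tbx2, with its small counts, 159 genes were tied at 0. Among the 4 genes Tbx15 and Tbx18 were the most alike, with a sum of 11.

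The 13 other T-box genes held 50 regions at E9.5, 15 of them stage-specific (30.0%), and 48 at E10.5, 11 of them stage-specific (22.9%). A promoter region was found for 12 of these genes at E9.5 and 9 at E10.5, with no share over all genes beside these counts. More E9.5-specific regions were found in 7 genes, and more E10.5-specific ones in 2, Tbx20 and Tbx22. Tbx4 and Tbx5, which belong to the same branch as Tbx2 and Tbx3 and mark hindlimb and forelimb, had 3 and 2 regions found at E9.5 alone and 2 and 1 found at E10.5 alone.

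**Figure D4:**
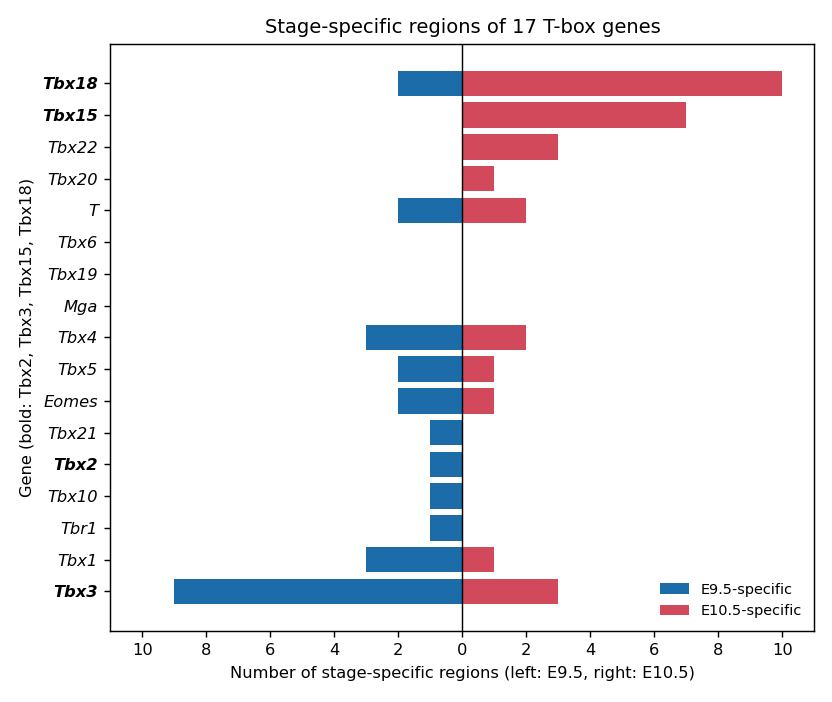
Number of stage-specific regions (x axis, E9.5-specific to the left in blue, E10.5-specific to the right in red) of 17 T-box genes (y axis, sorted by the difference). Tbx3 reaches 9 on the left, and Tbx18 and Tbx15 reach 10 and 7 on the right, while none of the other 13 genes exceeds 3 on either side. The counts are not scaled to the number of regions of a gene, which for those 13 was at most 8 in a list (Tbx4 at E9.5).

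The motifs not named above were the T-box core GGTGTGA (contained in the full T-box), the SMAD palindrome GTCTAGAC, the homeodomain motif TAATTA, the motif AGATAA of GATA factors and the FOX motif TGTTTAC. The full T-box AGGTGTGA was found in 1 of 33 E9.5 windows and 1 of 40 E10.5 windows, beside 0.831% and 0.964% of all windows in the lists. The E-box CAGCTG was in 5 of the 10 E9.5-specific windows of Tbx2 and Tbx3, where the rate among all E9.5-specific windows, 27.9%, would give 2.79. TAATTA was in 3 of the 17 E10.5-specific windows of Tbx15 and Tbx18, where the rate of 15.7% would give 2.67. The GC content of those 17 windows had a median of 43.7%, near the 44.3% of all E10.5-specific windows, and the E9.5-specific windows of Tbx2 and Tbx3 had 59.2% against 51.7%.

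For each of the 4 genes, the stage with more stage-specific regions was the same under all 11 alternative settings that bear on it. They varied how regions were assigned, filtered and overlapped, but recount the same regions, so they are not independent. None was set beside like regions, and for Tbx2 the main count was 1 against 0.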

How the data were processed

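Per the labels, 4 ATAC-seq samples of wild-type NMRI embryos were used, 2 per stage. The methods give forelimb buds, with trunk tissue at the earlier stage, whereas the E10.5 tissue label also names hindlimb buds. According to the methods, the authors aligned reads to mm9 with Bowtie 1.1.0 and called peaks per sample with MACS 1.4, naming no control. They then merged the 2 samples with MSPC (stringent p 1e-10, weak p 1e-06). The deposited score is 10 times the -log10 of the best peak p-value, so the authors' values carry no counts and the depth is unknown. The smallest scores were 60.52 and 60.44.

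Starts came from GENCODE vM1 (70064 starts of 22380 protein-coding gene IDs). Overlap needed 1 bp. Motifs and GC were read from the central 300 bp of each region in NCBIM37. The centre is not a peak summit. Standardised numbers used 10 score deciles and 5 GC quintiles. Shares carry 95% Wilson intervals, with 3 counts as the limit for 0. Overlap, distance and standardisation code was tested on simulated data. Python 3.11.15, pandas 2.3.3, numpy 2.4.6 and pysam 0.24.0 were used. Named regions were, per gene, every promoter region, the 3 strongest distal and 2 strongest stage-specific regions per stage, the farthest region, and the shared distal pairs with the 2 largest percentile changes each way. Other regions were given to complete a list after their values were seen. The genes, lists and motifs were chosen with earlier results of these data known.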

Additional observations from a re-analysis of the deposited data

How the results depend on the processing

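In 13 settings, 2 of them chosen after seeing the data, 168 alternative values were computed, of which 32 moved, a count by over 1.5 times or a share to outside the Wilson interval of the reported one. The other 136 did not, but with few regions these intervals are wide, and shares within them ranged far, such as 66.7% for Tbx2 at E9.5 with the upper 50% of scores and 33.3% for Tbx2 at E10.5 with a reciprocal overlap. Starts of all gene types gave Tbx3 3 regions at E9.5 and 1 at E10.5 (0% stage-specific at E10.5) and Tbx18 11 at E10.5. Keeping the upper 50% of scores gave Tbx2 1 region at E10.5, Tbx3 3 and 1 (0% stage-specific at E10.5, also against the whole other list), Tbx15 4 and 8, and Tbx18 4 and 10, with 0% of Tbx18 regions E9.5-specific against the whole other list. A score of at least 120 drops the Tbx2 regions of 76.22 and 83.74 from the E10.5 list. It gave Tbx2 1 region at E10.5 and 75% stage-specific at E9.5, and Tbx3 4 at E10.5. Cutting the E10.5 list to the length of the E9.5 list also gave 1 and 75% for Tbx2. A limit of 100 kb gave Tbx3 7 and 4 regions, and Tbx18 4 and 8 with 0% E9.5-specific. A promoter distance of 1 kb gave 1 promoter region each for Tbx2 and Tbx18, and 5 kb gave 4 for Tbx15, which had 1 with starts of protein-coding transcripts only. The cause of these moves was not tested. No paired analysis was possible because the samples of a stage had been merged, and for the same reason no replicate could be left out. Differences in depth between lists could not be measured.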
